A study of Mus musculus with 8 samples.

Results

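A group of 7 transcription regulators of the thymus was followed through a CITE-seq data set of mouse thymic stroma, namely Foxn1, Pax1, Pax9, Six4, Eya1, Hoxa3 and Trp63. They were listed by name, with no threshold on their values, and they are 7 of the 55487 gene identifiers in the deposited count table. The series held 4 mRNA libraries with 4 matched libraries of antibody-derived tags (ADT), in which transcripts and surface proteins of the same cells were counted by unique molecular identifiers (UMIs). Thymic stromal cells came from C57BL/6 mice aged 1 week or 16 weeks, were depleted of CD45-positive cells and were sorted as a mixture rich in EpCAM1-positive cells. Neither age group carried a transgene or a treatment. Per the study's methods, thymi of an age were pooled and each pool was loaded on 2 wells, here called replicates 1 and 2. Replicates of an age thus shared their mice, so their spread is technical, and with 1 pool an age no test of age was possible.

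The thymus forms from the endoderm of the third pharyngeal pouch. There Hoxa3, Pax1, Pax9, Eya1 and the homeodomain protein SIX4 act in organ formation, and FOXN1 then directs the differentiation of thymic epithelial cells (TEC), which in its absence do not support T cell development. Cortical TEC (cTEC) attract and positively select thymocytes, medullary TEC (mTEC) display self antigens, intertypical TEC share features of both, and p63, the product of Trp63, maintains the basal progenitors of stratified epithelia.

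Between 1430 and 4738 cells and between 21281389 and 45480790 UMIs were deposited for a library. The median cell had between 6668.5 and 8690.5 UMIs. Across libraries 15 cell barcodes were shared, on 35 cells. The 253 cells with the highest doublet scores were removed, a number set by an assumed rate, where the automatic call was 14. The other cells were clustered without the 7 genes and named from marker lists. This gave 1670 cTEC, 1570 intertypical TEC, 1129 mature mTEC, 270 proliferating TEC and 118 tuft-like mTEC, with 2144 fibroblasts, 394 endothelial cells and 335 mural cells. The cTEC numbered 878 and 605 at 1 week but 55 and 132 at 16 weeks. Of the 3 cTEC clusters, 2 carried 7 of 7 cTEC markers and the one led by the haemoglobin gene Hbb-bs carried 5. The cTEC markers include Psmb11, Prss16 and Ccl25, which are known targets of FOXN1, and comparisons were also made on TEC gated by surface tags, among them CD83, whose own gene is listed here as Foxn1-dependent. Proliferating TEC carried 5 of 5 cycling markers and 6 of 7 mature mTEC markers. Another 3 epithelial clusters stayed unnamed and are called by their leading genes, Fmod and Nrtn (426 cells), Scn1a and Gm13629 (286 cells), or Bpifa1 and Spink5 (111 cells). An unnamed cluster of 22 cells and 950 shallow epithelial cells were not described. Tuft-like mTEC and these 3 clusters are given at 16 weeks only, since no 1-week library held 20 cells of any of them.

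All 7 genes lie on autosomes of the mm10 (GRCm38) assembly. Foxn1 occupies chr11:78357577-78386558 on the minus strand, Pax1 chr2:147361925-147393295 on the plus strand and Pax9 chr12:56691767-56712822 on the plus strand. Six4 occupies chr12:73099609-73113456 on the minus strand, Eya1 chr1:14168954-14310235 on the minus strand, Hoxa3 chr6:52169062-52213336 on the minus strand and Trp63 chr16:25683763-25892102 on the plus strand. Hoxa3 overlaps Hoxa4, Hoxa5, Hoxa6 and Gm28308 on its own strand, so reads of these neighbours cannot be told apart with certainty, and its values are given with that limit. Eya1 overlaps Gm37444 and Trp63 overlaps Gm27005 on the same strand, so the same limit holds for their values. Pax1 and AI646519, an antisense gene, share sequence on opposite strands.

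FOXN1 binds DNA through the core letters GACGC. The 250 bases before each RefSeq start of transcription were therefore searched for GACGC and its reverse complement GCGTC. The windows are RefSeq's for GRCm38.p6. They are shown for Foxn1, for its fellow cTEC gene Pax1 and for Psmb11, the thymoproteasome subunit gene that is a known direct target of FOXN1. Each is written 5′ to 3′ on the strand of the gene, with the core letters in capitals.
Foxn1, chr11:78386609-78386858: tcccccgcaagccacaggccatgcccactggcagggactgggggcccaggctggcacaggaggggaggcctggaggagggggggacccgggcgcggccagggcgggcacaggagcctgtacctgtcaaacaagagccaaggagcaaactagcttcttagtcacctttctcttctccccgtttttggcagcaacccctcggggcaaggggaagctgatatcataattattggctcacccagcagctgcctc
Pax1, chr2:147364744-147364993: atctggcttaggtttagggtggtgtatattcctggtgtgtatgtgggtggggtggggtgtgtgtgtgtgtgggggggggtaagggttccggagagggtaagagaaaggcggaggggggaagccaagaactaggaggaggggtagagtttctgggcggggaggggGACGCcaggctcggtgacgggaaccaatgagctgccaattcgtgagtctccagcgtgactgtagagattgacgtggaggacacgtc
Psmb11, chr14:54625060-54625309: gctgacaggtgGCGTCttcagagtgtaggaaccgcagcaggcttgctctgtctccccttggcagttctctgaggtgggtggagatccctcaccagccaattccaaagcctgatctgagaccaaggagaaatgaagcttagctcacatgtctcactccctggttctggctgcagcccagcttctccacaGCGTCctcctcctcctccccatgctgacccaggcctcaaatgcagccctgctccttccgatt
The Foxn1 window held no match, the Pax1 window held 1 and the Psmb11 window held 2. Among the members with a window, Pax1 and Hoxa3 had a match and Foxn1, Pax9 and Six4 had none, which is 2 of 5. Of the Foxn1-dependent genes listed here, 4 of 7 had a match, and over all 27025 genes with a window the letters occurred in 24.8%. A match is a description of the letters and not of binding. The gene spans given above are GENCODE's, and the windows of Pax1, Pax9 and Hoxa3 lie inside them. Those windows thus precede a RefSeq start and not the start of the span. No window was given for Eya1 or Trp63.

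Since transcripts of TEC can reach droplets of other cells as free RNA, the level in fibroblasts was taken as background. Levels are in CPM, the UMIs of a gene in 1000000 UMIs of all genes, summed over the cells of a class in a well. Libraries counted only the 3′ ends of transcripts. Foxn1 in fibroblasts stood at 20.5 and 19.2 CPM at 1 week and at 6.77 and 9.0 CPM at 16 weeks. That was 9.07% to 11.5% of the Foxn1 level over all TEC of the same library. For Pax1 the corresponding share was 5.96% to 8.86%, for Pax9 5.32% to 8.43%, for Eya1 9.17% to 16.8% and for Trp63 6.01% to 10.8%. Six4 had 11.5% to 32.4%. These 6 genes were thus at a low level in fibroblasts, and the part of free RNA in it was not tested. The choice of background cell mattered. Foxn1 stood at 9.78% to 13.5% of the TEC level in endothelial cells and at 9.26% to 25.5% in mural cells, the highest from 5 UMIs. Hoxa3 stood apart, with 91.2% to 166% of the TEC level in fibroblasts and 128% to 293% in mural cells. The cluster with haematopoietic markers was not used as background because it also carried 5 of 7 epithelial markers, with Foxn1 at 113 and 111 CPM at 1 week.

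**Figure D1:**
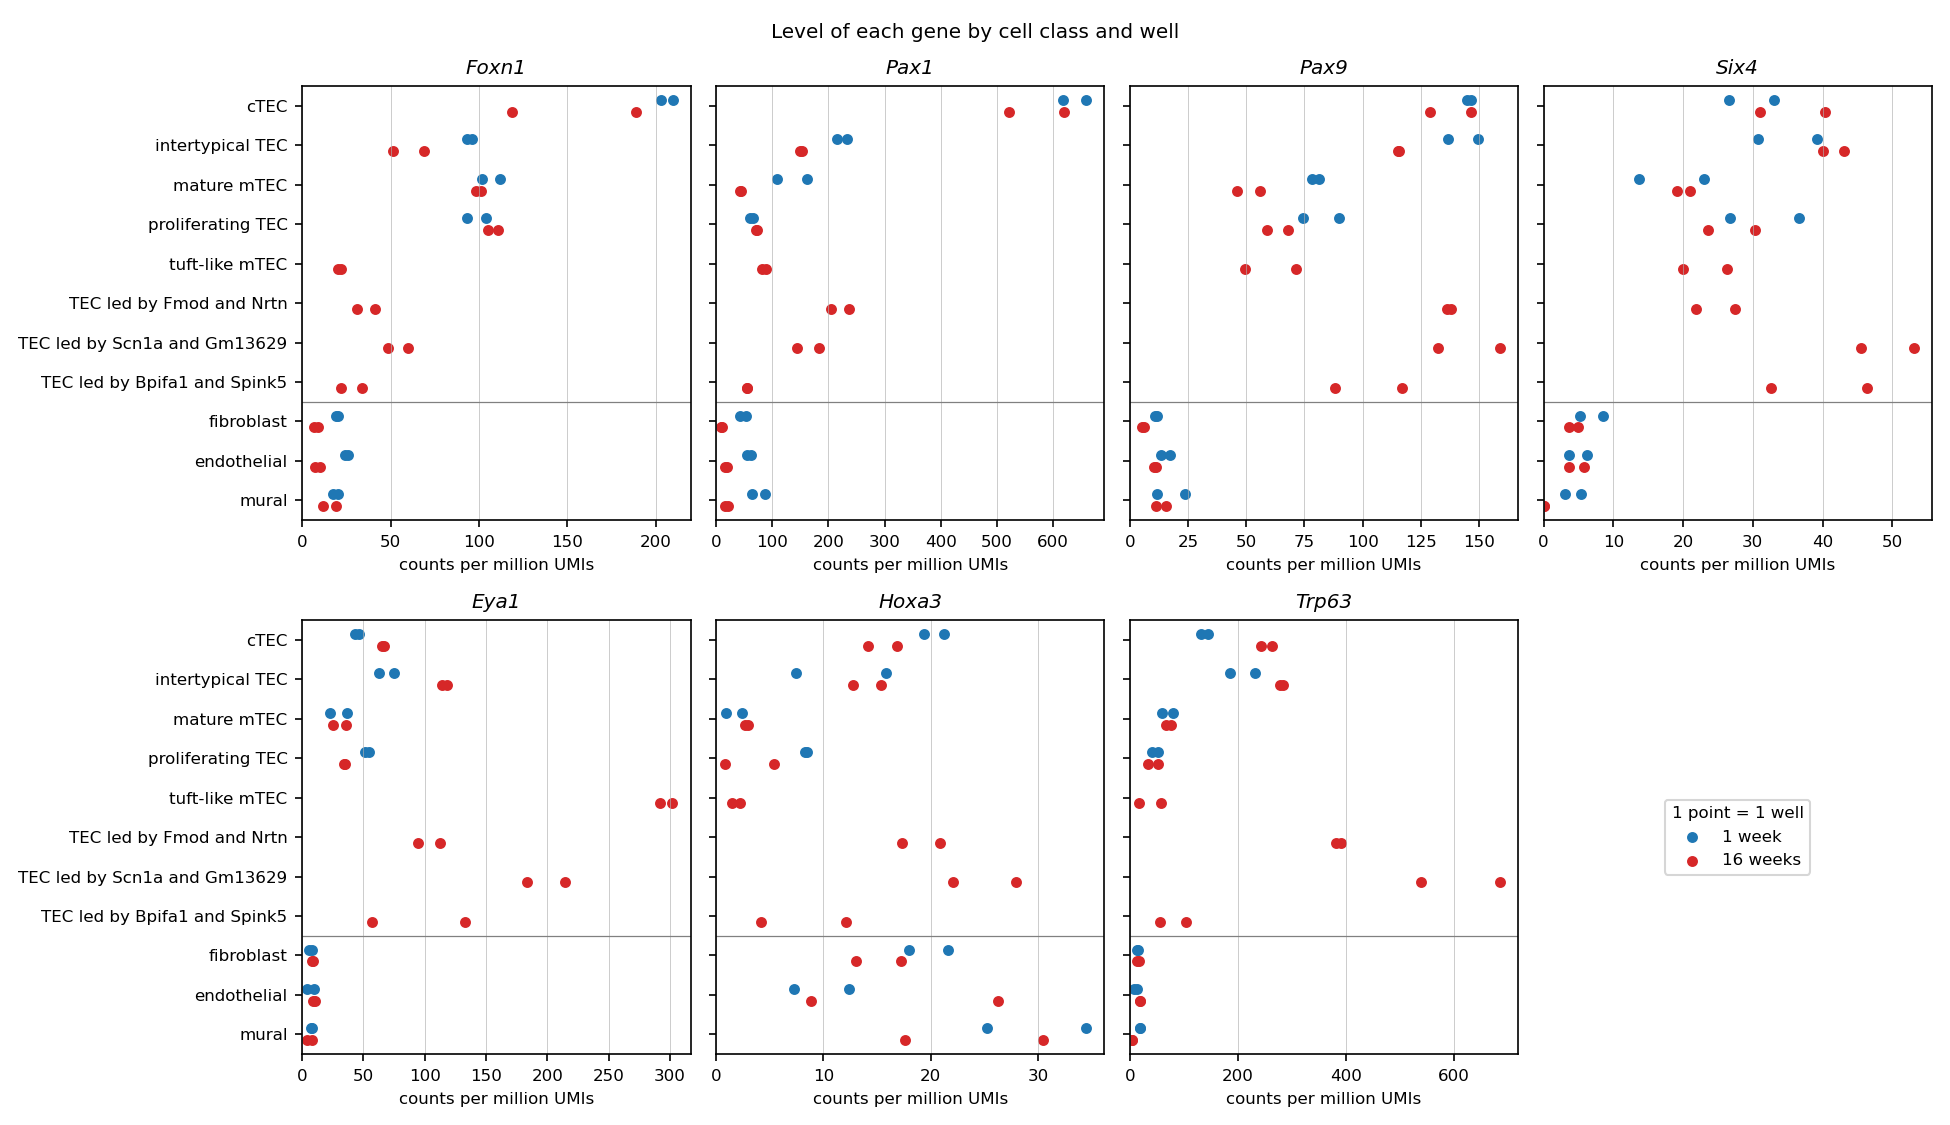
Level of each gene in CPM, UMIs per 1000000 UMIs (horizontal axes, each from 0) by cell class and well. A point is 1 well with at least 20 cells of the class, in blue at 1 week and in red at 16 weeks. Foxn1 and Pax1 are highest in cTEC in every well. Eya1 and Trp63 are highest in intertypical TEC at 1 week, and at 16 weeks in tuft-like mTEC and in the cluster led by Scn1a and Gm13629, while Hoxa3 in fibroblasts and mural cells reaches its level in cTEC.

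Foxn1, the transcription factor that sets the TEC programme, was highest in cTEC. Its level in cTEC was 203 and 210 CPM at 1 week and 119 and 189 CPM at 16 weeks, and replicate 1 at 16 weeks, with 55 cTEC, was the low one. Intertypical TEC had 96.1 and 93.1 CPM at 1 week and 69.0 and 51.5 CPM at 16 weeks. Mature mTEC had 101.8 and 112 CPM at 1 week and 98.3 and 101 CPM at 16 weeks. Every cTEC well therefore lay above every well of these classes. At 16 weeks the order went on from cTEC through proliferating TEC (105 and 111 CPM) and mature mTEC to intertypical TEC, which overlapped with the cluster led by Scn1a and Gm13629 (59.7 and 48.6 CPM). Tuft-like mTEC, at 20 and 21.9 CPM, were the lowest of the TEC, next to mural cells at 19.0 and 11.7 CPM and above endothelial cells at 7.30 and 10.3 CPM.

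Differences between classes were tested with edgeR on sums per pool and class with the pool as a block, and p-values were adjusted over all 17712 genes tested. The pools were those of the 2 ages, so the tests set differences between classes against how these differed between the ages. Foxn1 was higher in cTEC than in intertypical TEC by 1.38 ± 0.27 (SE) on the log2 scale, which is 2.60-fold (edgeR adjusted p = 0.0132). It was higher in cTEC than in mature mTEC by 0.88 ± 0.26, or 1.84-fold (edgeR adjusted p = 0.0227). Both calls were lost without replicate 2 of the 16-week pool, at 0.96 (adjusted p = 0.106) and 0.57 (adjusted p = 0.189), and the second also without replicate 1 of the 1-week pool (0.75, adjusted p = 0.0590). Without the pool block both calls were also lost (adjusted p = 0.0929 and 0.0773). Between intertypical TEC and mature mTEC Foxn1 differed by -0.50 ± 0.27, which did not pass (adjusted p = 0.190) but did under 2 of 15 alternatives, at -1.19 with a stricter marker level for naming clusters (adjusted p = 0.0126) and at -0.60 with sums per library (adjusted p = 0.0299). Over the 3 TEC classes together it was 7.5-fold higher than in fibroblasts (log2 2.91 ± 0.26, edgeR adjusted p = 2.7e-05).

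Pax1, a paired-box factor needed for full thymus growth, was also highest in cTEC among the classes described. Of cTEC, intertypical TEC and mature mTEC it was lowest in the last. Its level in cTEC was 659 and 618 CPM at 1 week and 521 and 620 CPM at 16 weeks. Intertypical TEC had 233 and 216 CPM at 1 week and 149 and 153 CPM at 16 weeks. Mature mTEC had 161 and 109 CPM at 1 week and 45.0 and 42.3 CPM at 16 weeks. The 3 classes did not overlap within an age. Pax1 was 8.22-fold higher in cTEC than in mature mTEC (log2 3.04 ± 0.50, edgeR adjusted p = 0.00139), and this call held under 15 of 15 alternatives. It was 3.46-fold higher in cTEC than in intertypical TEC (log2 1.79 ± 0.47, edgeR adjusted p = 0.0414), a call lost under 6 of 15 alternatives, among them leaving out replicate 2 at 16 weeks (1.64, adjusted p = 0.0637). The difference of 1.25 ± 0.48 between intertypical TEC and mature mTEC did not pass (adjusted p = 0.0749). It passed under 4 of 15 alternatives, among them leaving out replicate 1 of the 1-week pool (1.35, adjusted p = 0.0453). Over the alternatives it ran from 0.53 to 1.45.

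Pax9, the closest relative of Pax1 in the family and a factor the pharyngeal pouch requires, had similar levels in cTEC and intertypical TEC. Its level in cTEC was 145 and 147 CPM at 1 week and 147 and 129 CPM at 16 weeks. In intertypical TEC it was 150 and 137 CPM at 1 week and 115 and 116 CPM at 16 weeks, and the classes overlapped at 1 week but not at 16 weeks. Mature mTEC had 78.3 and 81.3 CPM at 1 week and 46.0 and 56.0 CPM at 16 weeks, below both other classes in every well. The difference of cTEC from intertypical TEC was 0.15 ± 0.19 on the log2 scale (adjusted p = 0.660). Pax9 was higher than in mature mTEC by 1.16 ± 0.19 in cTEC (edgeR adjusted p = 0.00141) and by 1.01 ± 0.19 in intertypical TEC (edgeR adjusted p = 0.00494), the latter lost under 2 of 15 alternatives (adjusted p up to 0.0616). It had the largest difference of the 7 genes between TEC and fibroblasts, 11.6-fold (log2 3.53 ± 0.20, edgeR adjusted p = 1.28e-06).

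Eya1 is a phosphatase and coactivator that works with homeodomain factors such as SIX4. The level of Six4 in cTEC was 26.6 and 33.0 CPM at 1 week and 31.0 and 40.4 CPM at 16 weeks. In intertypical TEC Six4 had 30.7 and 39.2 CPM at 1 week and 43.1 and 40.1 CPM at 16 weeks, which overlapped with cTEC at both ages. In mature mTEC it had 13.7 and 23.1 CPM at 1 week and 19.2 and 21.0 CPM at 16 weeks. Mature mTEC were thus below both classes at each age. Six4 was higher than in mature mTEC by 0.82 ± 0.25 on the log2 scale in cTEC (edgeR adjusted p = 0.0222) and by 1.00 ± 0.25 in intertypical TEC (edgeR adjusted p = 0.0153). The first call was lost without replicate 2 at 16 weeks (0.63, adjusted p = 0.143), and each changed under 2 of 15 alternatives, with adjusted p up to 0.243 and 0.165.

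Eya1 had 42.9 and 46.4 CPM in cTEC at 1 week and 66.8 and 65.2 CPM at 16 weeks. Intertypical TEC had more, 75.3 and 62.4 CPM at 1 week and 118 and 114 CPM at 16 weeks, without overlap with cTEC of the same age. Mature mTEC had 36.2 and 23.1 CPM at 1 week and 24.8 and 36.1 CPM at 16 weeks. The top of its order at 16 weeks was held by tuft-like mTEC, a chemosensory TEC type, with 292 and 302 CPM, followed by the cluster led by Scn1a and Gm13629 with 214 and 183 CPM. Neither overlapped with the next in order, and these clusters were compared as values only. Eya1 was higher in intertypical TEC than in mature mTEC by 1.57 ± 0.30 on the log2 scale (edgeR adjusted p = 0.00459). The difference of -0.73 ± 0.28 between cTEC and intertypical TEC did not pass (adjusted p = 0.134). This difference passed under 3 of 15 alternatives (edgeR adjusted p down to 0.00457). That of 0.84 ± 0.29 between cTEC and mature mTEC passed (edgeR adjusted p = 0.0412) but was lost under 9 of 15 alternatives, down to 0.15 on tag gates, and without replicate 2 at 16 weeks (0.92, adjusted p = 0.0568).

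Hoxa3, the homeobox gene that patterns the third pouch, was low throughout. Its level in cTEC was 21.2 and 19.3 CPM at 1 week and 14.1 and 16.8 CPM at 16 weeks. Intertypical TEC had 15.9 and 7.41 CPM at 1 week and 12.7 and 15.3 CPM at 16 weeks. Mature mTEC had 0.978 and 2.43 CPM at 1 week, from 1 and 2 UMIs, and 2.98 and 2.7 CPM at 16 weeks, from 9 and 19 UMIs. Mature mTEC were thus below cTEC and intertypical TEC in every well. Tuft-like mTEC at 16 weeks held 1 UMI a well (2.23 and 1.46 CPM), which is within counting error of mature mTEC. Fibroblasts, at 18 and 21.6 CPM at 1 week and 17.2 and 13.1 CPM at 16 weeks, overlapped with cTEC at both ages. Hoxa3 was 7.38-fold higher in cTEC than in mature mTEC (log2 2.88 ± 0.42, edgeR adjusted p = 7.75e-04). It was 5.38-fold higher in intertypical TEC than in mature mTEC (log2 2.43 ± 0.42, edgeR adjusted p = 0.00328). It was the only member lower in TEC than in fibroblasts, by -1.16 ± 0.28 as the mean over the 3 TEC classes (edgeR adjusted p = 0.00877), a call lost with doublets kept (-1.07, adjusted p = 0.0503).

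Trp63, which encodes the basal epithelial factor p63, was low in mature mTEC, in proliferating TEC and, at 16 weeks, in tuft-like mTEC (57.9 and 17.5 CPM). Its level in cTEC was 133 and 144 CPM at 1 week and 244 and 263 CPM at 16 weeks. Intertypical TEC had 186 and 232 CPM at 1 week and 284 and 278 CPM at 16 weeks. Mature mTEC had 79.3 and 59.5 CPM at 1 week and 76.8 and 66.5 CPM at 16 weeks. Intertypical TEC were above cTEC and cTEC above mature mTEC at each age, with no overlap. The top of the order at 16 weeks was the cluster led by Scn1a and Gm13629 (539 and 685 CPM), then the cluster led by Fmod and Nrtn (382 and 390 CPM), and neither overlapped with the next. Trp63 was higher than in mature mTEC by 1.81 ± 0.22 on the log2 scale in intertypical TEC (edgeR adjusted p = 6.16e-04) and by 1.50 ± 0.22 in cTEC (edgeR adjusted p = 7.30e-04). The difference of -0.31 ± 0.21 between cTEC and intertypical TEC did not pass (adjusted p = 0.390).

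Counted together, 7 of 7 members were higher in cTEC than in mature mTEC, where 20% of all genes tested were called higher, and their median log2 difference was 1.16 against -0.02 over all genes. Between intertypical TEC and mature mTEC 5 of 7 were higher, where 12.9% of genes were, with a median of 1.25 against 0.03. Between cTEC and intertypical TEC only Foxn1 and Pax1 passed, both higher in cTEC, against 4.79% of genes, with a median of 0.15 against -0.06. Against fibroblasts 6 of 7 were higher, where 17.1% of genes were, and 1 lower, where 22.0% were, with a median of 2.91 against 0.01. Without replicate 2 at 16 weeks the first count fell to 4 and the third to 0. Among cTEC, intertypical TEC and mature mTEC, the last were thus the low class for most members. The members were chosen with earlier results of these data known, so these counts are no independent evidence. Thymocyte RNA moved with the cTEC comparisons. The summed level of 8 thymocyte markers, none of them at 0 in cTEC, was 188 to 333 CPM in cTEC, 79.1 to 157 CPM in mature mTEC and 49.0 to 130 CPM in intertypical TEC, and its part in the differences was not tested.

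**Figure D2:**
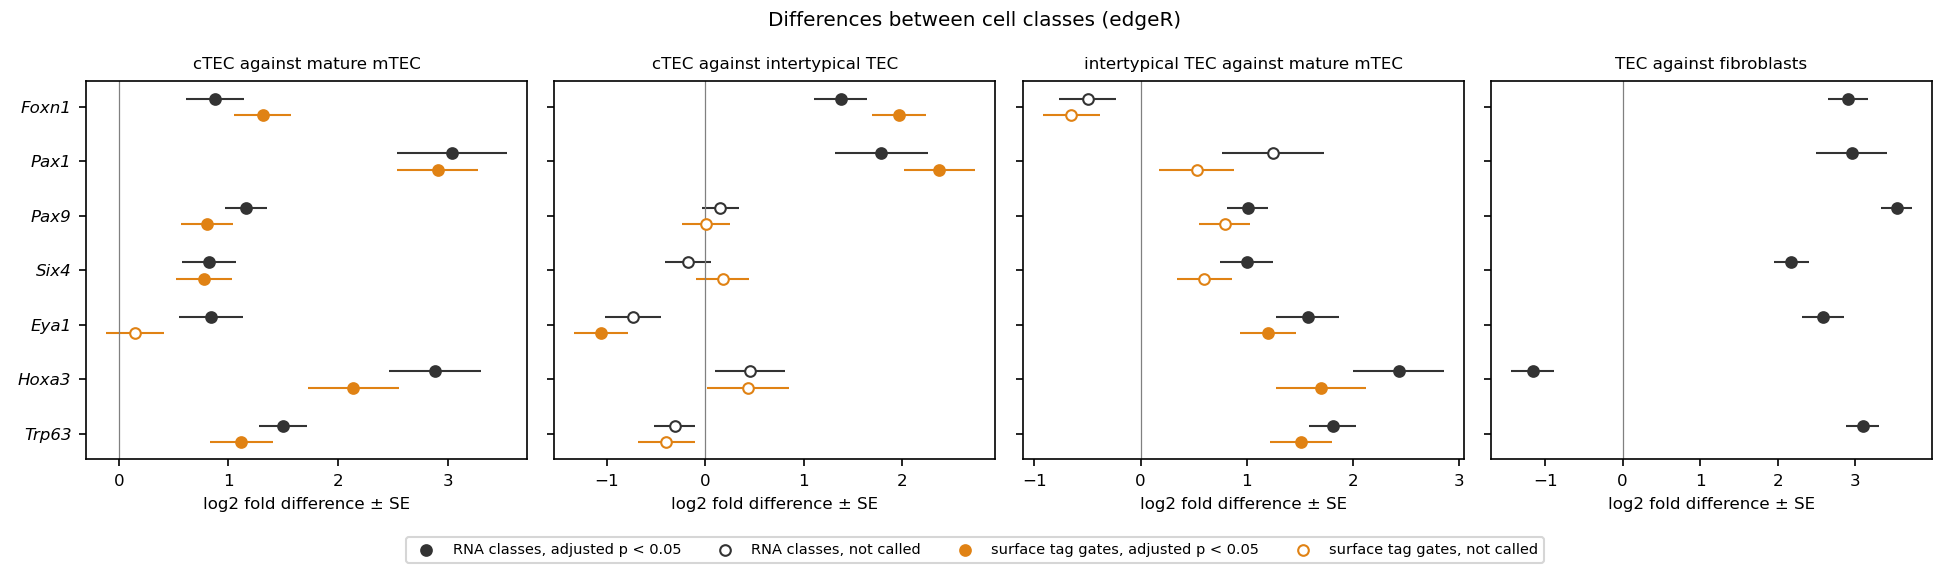
Log2 fold difference of each gene between classes with its standard error (horizontal axes), from edgeR on sums per pool, for RNA classes in black and for gates on surface tags in orange. Filled points passed an adjusted p of 0.05. Foxn1 and Pax1 are the only filled RNA-class points of cTEC against intertypical TEC, and Hoxa3 is the only point below 0 against fibroblasts.

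**Figure D3:**
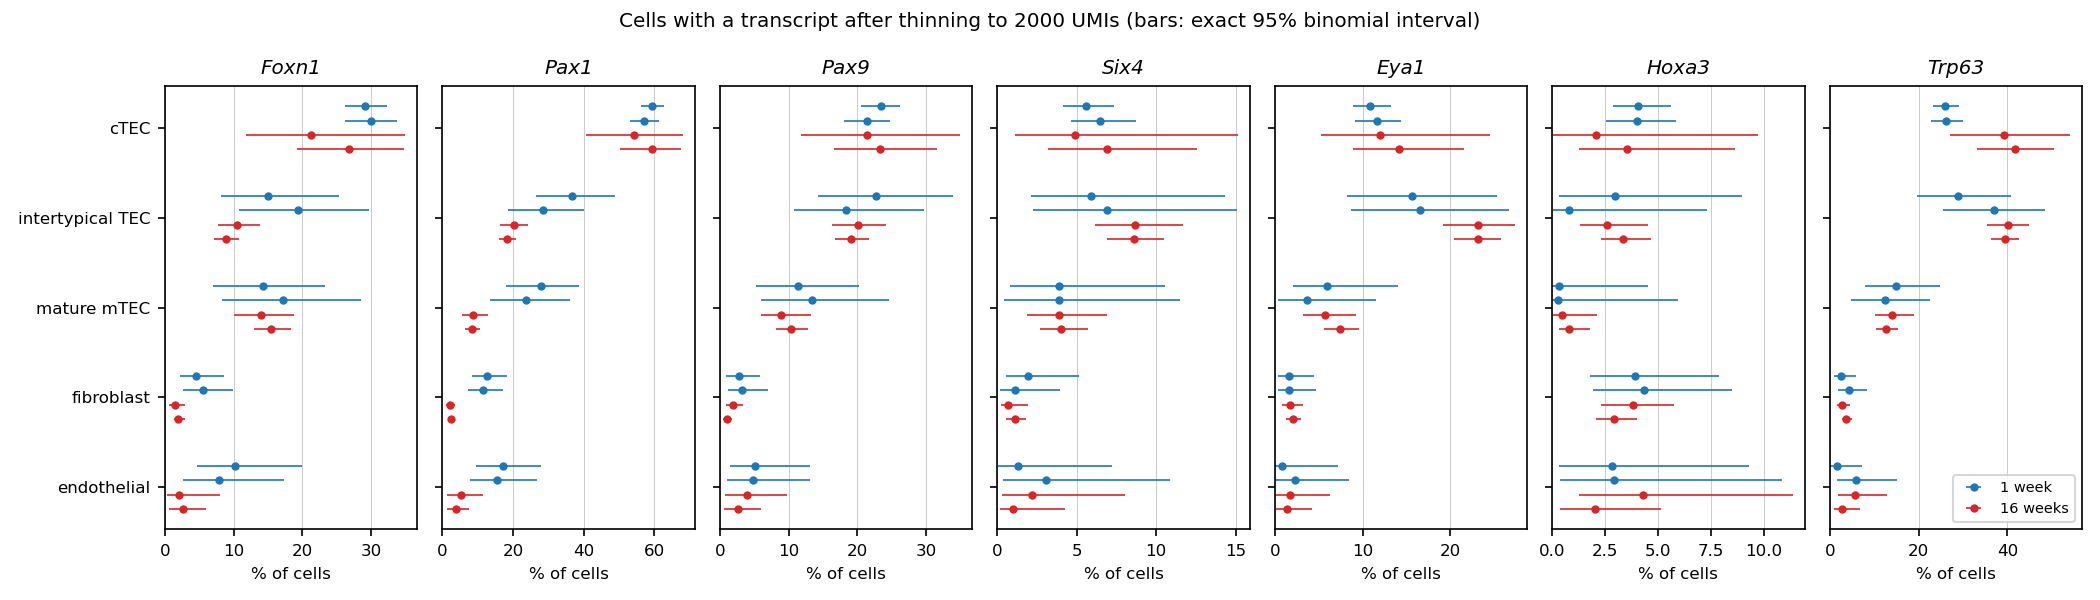
Percent of cells with at least 1 UMI of the gene after thinning to 2000 UMIs per cell (horizontal axes), by class and well, with exact 95% binomial intervals. Blue points are the wells at 1 week and red points those at 16 weeks. Shares in cTEC lie above those in fibroblasts in every well for each gene but Hoxa3.

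The share of cells with a transcript was compared after thinning every cell to 2000 UMIs, since the classes differed in depth. Fibroblasts were among the deepest cells (medians of 18398.5 and 21653 UMIs in the 1-week wells, 10919.5 and 12257.5 in the 16-week wells), cTEC had medians of 11710 to 14238 UMIs and intertypical TEC of 5096 to 6925. Foxn1 was found in 29.1% and 30.0% of cTEC at 1 week and in 21.3% and 26.8% at 16 weeks. Unthinned, these shares were 76.0%, 75.0%, 61.8% and 68.2%. In fibroblasts the thinned share was 4.54% and 5.52% at 1 week and 1.42% and 1.97% at 16 weeks, and the unthinned share was 29.6%, 30.2%, 7.89% and 8.51%. Mature mTEC held Foxn1 in 13.9% to 17.2% of cells and intertypical TEC in 8.90% to 19.3%, in both cases above the fibroblasts of the same well. Endothelial cells, with medians of 5813 to 7514.5 UMIs, had 10.2% and 7.87% at 1 week, and 2.00% and 2.68% at 16 weeks. At 1 week the intervals of these shares overlapped between endothelial cells and both intertypical TEC and mature mTEC, while the levels, at 24.1 and 25.99 CPM in endothelial cells, lay below every well of these classes.

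Pax1 after thinning was found in 59.4% and 57.2% of cTEC at 1 week and in 54.2% and 59.3% at 16 weeks, against 12.6%, 11.5%, 2.08% and 2.42% of fibroblasts. Mature mTEC with Pax1 made up 27.8% and 23.6% in the 1-week wells against 8.58% and 8.24% in the 16-week wells. Trp63 was found in 26% and 26.2% of cTEC at 1 week and in 39.1% and 41.8% at 16 weeks, against 2.58% to 4.43% of fibroblasts. The thinned share of Eya1 in intertypical TEC was 15.6% and 16.6% at 1 week and 23.2% and 23.1% at 16 weeks, against 1.60% to 2.04% of fibroblasts. Pax9 was found in 21.4% to 23.4% of cTEC and Six4 in 4.89% to 6.89%, with 1.01% to 3.15% and 0.697% to 1.91% of fibroblasts. In each of cTEC, intertypical TEC and mature mTEC, 6 of 7 members had a higher thinned share than fibroblasts in 4 of 4 libraries, where 28.7%, 25% and 30.9% of genes did. Hoxa3 was the exception. Its share in cTEC was above that in fibroblasts in 2 of 4 libraries, in intertypical TEC in 1 and in mature mTEC in 0. Its thinned share was 2.04% to 4.04% in cTEC, 2.93% to 4.33% in fibroblasts and 0.269% to 0.777% in mature mTEC, so for Hoxa3 mature mTEC and not fibroblasts had the lowest share. Intervals cover counting error only.

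Gates on surface tags divided the 5602 TEC again, and no RNA marker of a TEC class entered the gates. The TEC themselves had been selected by RNA clusters. The gates followed the study's populations, with perinatal cTEC as UEA1-negative, CD83-positive, CD40-positive and Sca1-negative cells, mature cTEC as UEA1-, CD83-, CD40- and Sca1-negative cells, and intertypical-like cTEC as the same but Sca1-positive. Intertypical mTEC were UEA1-positive, MHCII-low, CD80-low and Sca1-positive, and mature mTEC UEA1-positive, MHCII-high and CD80-high. By RNA, 632 cells of the perinatal gate and 339 of the mature cTEC gate were cTEC. The intertypical-like gate held 63 cTEC and 111 intertypical TEC, with 230 cells of the cluster led by Fmod and Nrtn and 141 of the cluster led by Scn1a and Gm13629. Of the mTEC gates, the intertypical one held 929 intertypical TEC and the mature one 992 mature mTEC and 209 proliferating TEC. Foxn1 stood at 238 and 256 CPM in perinatal cTEC at 1 week (375 and 227 cells) and at 228 CPM in replicate 2 at 16 weeks (36 cells), with 7 cells in replicate 1. In mature cTEC Foxn1 had 135 and 142 CPM at 1 week and 116 and 91.4 CPM at 16 weeks. In the intertypical-like gate at 16 weeks it had 63.8 and 53.0 CPM. Mature mTEC by gate had Foxn1 at 131 and 128 CPM at 1 week and 86.4 and 97.1 CPM at 16 weeks, and intertypical mTEC had 104 and 127 CPM at 1 week and 51.8 and 38.2 CPM at 16 weeks. Foxn1 in the perinatal gate was thus above every well of the other gates that held 20 cells, while the mature cTEC gate overlapped with the mature mTEC gate at 16 weeks and lay just above it at 1 week.

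Pax1 in perinatal cTEC was 754 and 707 CPM at 1 week and 782 CPM at 16 weeks. In mature cTEC it was 527 and 546 CPM at 1 week and 153 and 356 CPM at 16 weeks, where both wells were low and far apart. Trp63 ran the other way, at 127 and 131 CPM in perinatal cTEC at 1 week and 180 CPM at 16 weeks, 143 and 175 CPM in mature cTEC at 1 week and 271 and 301 CPM at 16 weeks, and 363 and 394 CPM in the intertypical-like gate at 16 weeks. At 16 weeks the 3 cTEC gates did not overlap for Trp63, and most cells of the intertypical-like gate came from the 2 unnamed clusters in which Trp63 was highest. At 1 week the intertypical-like gate held 17 and 12 cells, with Trp63 at 119 and 220 CPM, which spanned the other cTEC gates. For Pax1 the perinatal gate lay above the others, while at 16 weeks the intertypical-like gate (231 and 256 CPM) fell between the wells of mature cTEC. In edgeR on the gates cTEC were those of the perinatal gate alone, with 602 cells at 1 week and 43 at 16 weeks, and the mature cTEC gate was not tested. Foxn1 was higher in perinatal cTEC than in intertypical mTEC by 1.97 ± 0.28 on the log2 scale (adjusted p = 0.00147) and than in mature mTEC by 1.31 ± 0.26 (adjusted p = 0.00416). Pax1 was higher by 2.38 ± 0.36 (adjusted p = 0.00218) and by 2.91 ± 0.37 (adjusted p = 7.88e-04). Eya1 was lower in perinatal cTEC than in intertypical mTEC by -1.06 ± 0.27 (adjusted p = 0.0263), which had not passed between the RNA classes. Between the intertypical and the mature mTEC gate 3 of 7 members passed, Trp63, Hoxa3 and Eya1, against 5 of 7 between the RNA classes. Over all genes 891 of 17093 were higher on the gates and 2286 of 17712 between the RNA classes, so calls were fewer for genes at large too.

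**Figure D4:**
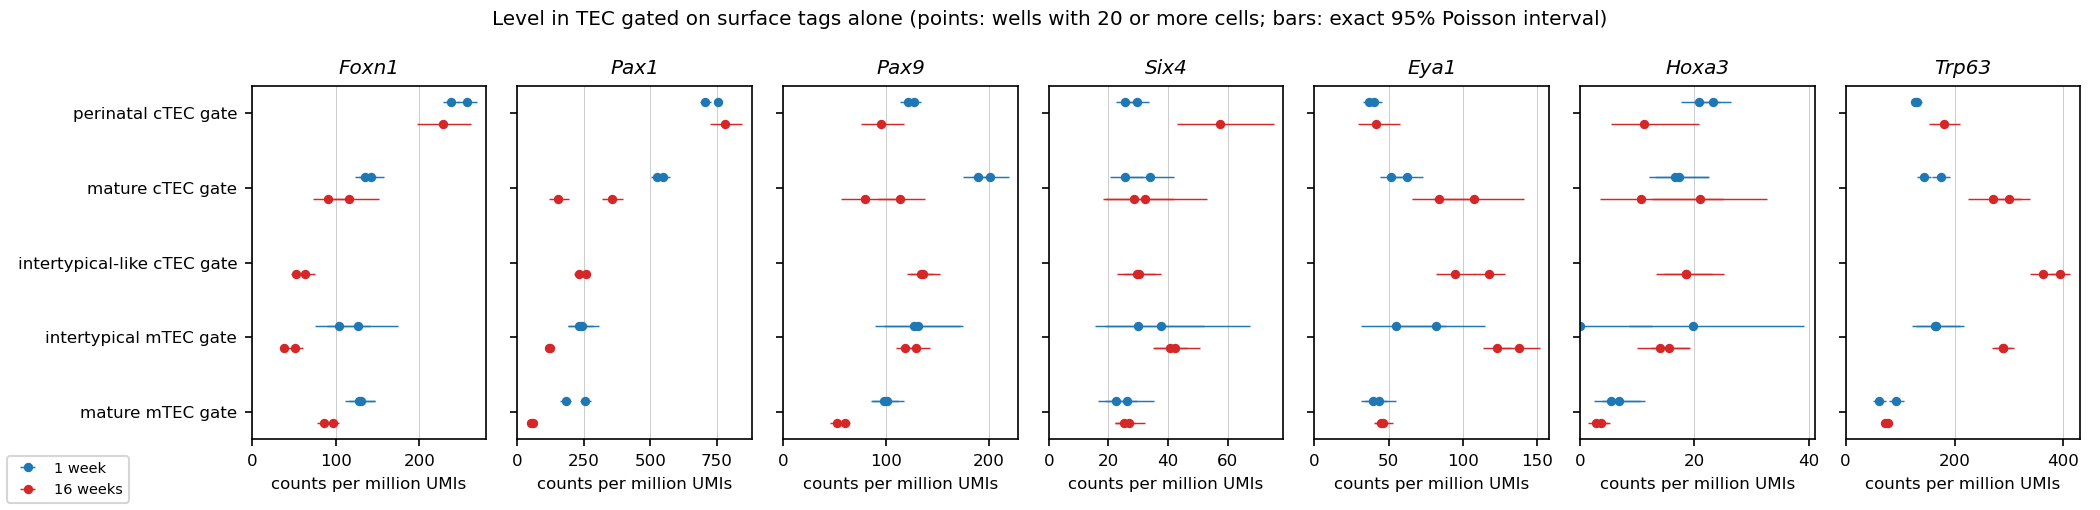
Level of each gene in CPM, UMIs per 1000000 UMIs (horizontal axes) in TEC gated on surface tags, by well with at least 20 cells, with exact 95% Poisson intervals. Blue points are wells at 1 week and red points wells at 16 weeks. Foxn1 and Pax1 are highest in the perinatal cTEC gate and at 16 weeks Trp63 is highest in the intertypical-like cTEC gate.

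The cTEC class held 3 RNA clusters made without the 7 genes, and they differed in several of them. The cluster led by Isg20, Ccl25, Tbata and Cd83 had Foxn1 at 266 and 288 CPM at 1 week and 252 CPM in replicate 2 at 16 weeks. The cluster led by Sptssb and Nqo1 had 165 and 170 CPM at 1 week and 61.3 and 143 CPM at 16 weeks. The cluster led by Hbb-bs had 142 and 143 CPM at 1 week and 173 and 160 CPM at 16 weeks. The first cluster was thus high at both ages. Eya1 had the opposite order at 1 week, with 32.2 and 37.6 CPM in the first cluster, 39.5 and 39.1 CPM in the second and 77.2 and 79.5 CPM in the last. The median cell held 31290 UMIs in the first cluster, 26622.5 in the second and 6262 in the last, and the part of depth in these orders was not tested.

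cTEC of each library were also split by the level of 1 tag at a time, and the tertile with most of the tag was set against the tertile with least. Foxn1 in the bottom and top tertile of CD83 was 150 and 243 CPM in replicate 1 at 1 week, 150 and 255 CPM in replicate 2, 63.8 and 174 CPM in replicate 1 at 16 weeks and 139 and 227 CPM in replicate 2. The log2 ratio was 0.69, 0.77, 1.43 and 0.70. It was 0.27 to 1.51 for CD40, 0.47 to 0.91 for CD270 (HVEM) and 0.18 to 0.61 for MHCII, and for Sca1 it was negative in all 4 libraries, from -0.48 to -0.35. Foxn1 was thus higher with more of the first 4 tags and lower with more Sca1 in 4 of 4 libraries. Pax1 did the same, with ratios of 0.44 to 0.64 for CD83, 0.40 to 0.63 for CD40, 0.31 to 0.85 for CD270, 0.45 to 1.01 for MHCII and -0.71 to -0.19 for Sca1.

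Eya1 and Trp63 went the other way. Eya1 was lower in the top tertile of MHCII by log2 ratios of -1.76 to -0.74 and in that of CD40 by -0.88 to -0.55. Trp63 was lower in the top tertile of MHCII by -1.41 to -0.33 and in that of CD40 by -0.91 to -0.25. Both were also lower for CD83 and CD270 in 4 of 4 libraries with tags as centred log ratios. With tags scaled by the total tag count of a cell the direction was not kept in every library for Eya1 by CD270 (-0.70 to 0.75), Trp63 by CD270 (-0.32 to 0.71) and Eya1 by CD83 (-1.08 to 0.13). Eya1 was higher with more Sca1, going from 35.4 to 52.2 CPM in replicate 1 and from 38.5 to 50.1 CPM in replicate 2 at 1 week, and from 49.5 to 79.9 CPM and from 43.9 to 104 CPM at 16 weeks. For CD83, CD40, CD270 and MHCII, 2 of 7 members were higher in 4 of 4 libraries, where 10.0%, 10.6%, 10.4% and 9.64% of genes were. Members lower in 4 of 4 libraries numbered 3, 2, 2 and 2, where 23.6%, 24.4%, 27% and 27% of genes were. The lower counts for CD40, CD270 and MHCII are thus near what genes at large showed. For Sca1, Pax9 and Eya1 were higher and Foxn1 and Pax1 lower, where 12.8% and 9.59% of genes were. For CD49a, Eya1, Hoxa3 and Trp63 were higher, where 11.1% of genes were, but Hoxa3 rested on 1 and 4 UMIs in replicate 1 at 16 weeks. Over 8 tags and 7 genes, 24 of 56 pairs kept 1 direction in 4 of 4 libraries, and 37 did without replicate 1 at 16 weeks, where a tertile held 18 cells, a count that leaving out a library can only hold or raise. With tags as centred log ratios no member kept 1 direction for CD73 or UEA1, where 8.51% and 7.86% of genes were higher and 8.68% and 6.72% lower. With tags scaled by total count, Eya1 and Trp63 were higher and Pax1 lower with more CD73 in 4 of 4 libraries, and with more UEA1 Eya1 and Trp63 were higher and Foxn1 and Pax1 lower. On that scale Foxn1 (-1.27 to -0.44) and Pax1 (-0.61 to -0.37) were also lower with more CD49a, Trp63 was higher with more Sca1 (0.17 to 1.04) and Hoxa3 was higher with more CD270 (0.21 to 1.74).

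Depth moved with the tags. In replicate 1 at 1 week the median cell of the bottom and top tertile held 10417 and 19778.5 UMIs for CD83, 7013.5 and 35604.5 for CD40 and 13631.5 and 8876.5 for Sca1, and the part of depth in the ratios was not tested. In replicate 1 at 16 weeks the deeper CD83 tertile was the bottom one (22305 against 17539). With tags scaled by total count, Foxn1 ratios ran from 0.18 to 1.34 for CD83 and from 0.27 to 0.63 for MHCII, but from -0.02 to 1.45 for CD40 and from -0.33 to 0.80 for CD270, so the direction was not kept in every library for the last pair. The same held for Pax1 by CD270 (-0.18 to 0.60), Pax9 by CD83 (-0.55 to 0.0012) and Hoxa3 by CD49a (-0.02 to 1.46). For genes with few UMIs the 0.5 added to each tertile shifts the ratio towards the shallower tertile. Its part in the shares of genes was not tested. All values in this comparison are descriptions with no test.

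**Figure D5:**
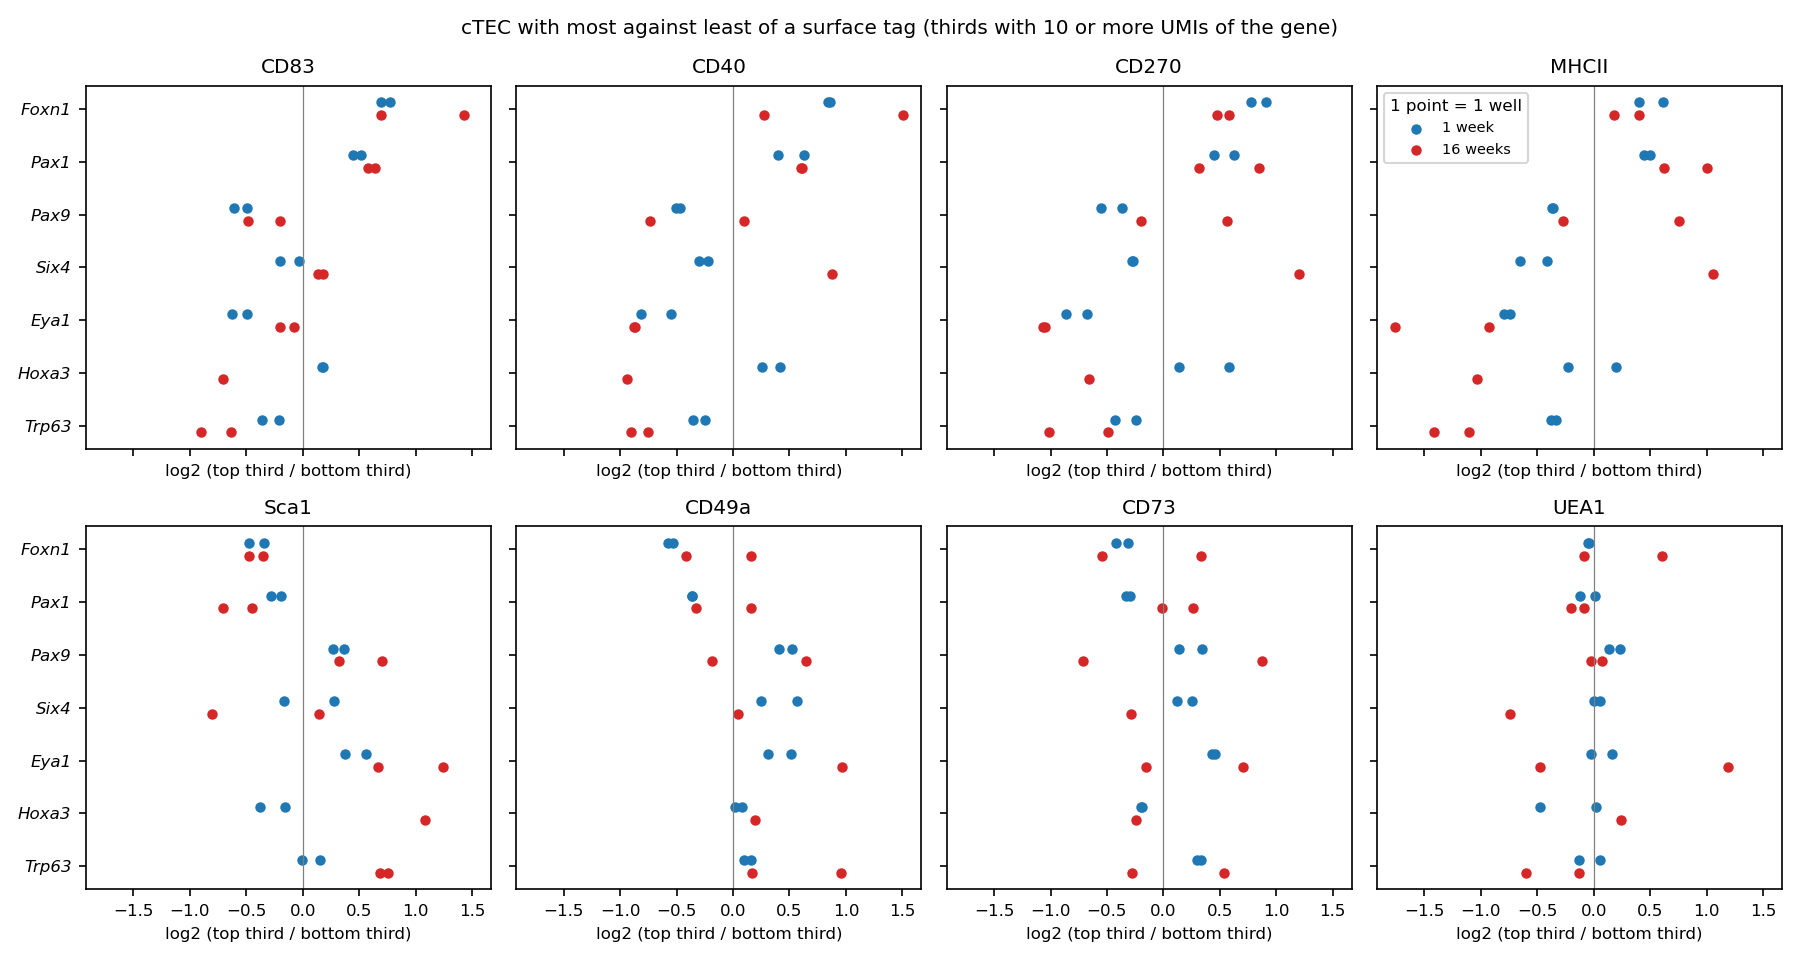
Log2 ratio of the level of each gene in the cTEC with most over the cTEC with least of a surface tag (horizontal axes, outer tertiles of the cTEC of a library). A point is 1 well with at least 10 UMIs of the gene in both sets, blue at 1 week and red at 16 weeks. Foxn1 and Pax1 lie above 0 in every well for CD83, CD40, CD270 and MHCII, and Eya1 and Trp63 lie below 0, with tags as centred log ratios.

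Between the ages the members differed in both directions. In cTEC Trp63 went from 138 ± 8.36 CPM (SD, 2 wells) at 1 week to 254 ± 14 CPM at 16 weeks, a log2 ratio of the pools of 0.90 with a 95% Poisson interval from 0.80 to 1.01. Eya1 went from 44.7 ± 2.53 to 66.0 ± 1.10 CPM, a ratio of 0.57 (interval 0.36 to 0.77). Foxn1 was lower at 16 weeks, 154 ± 49.8 against 206 ± 4.57 CPM, a ratio of -0.30 (interval -0.43 to -0.18). The wells did not overlap for these 3 genes, but for Foxn1 the log2 ratio of the well means (-0.43) was smaller than the SD between wells on that scale (0.48). The clusters of cTEC went in both directions, since Foxn1 in the cluster led by Hbb-bs was higher at 16 weeks and in the cluster led by Sptssb and Nqo1 lower. Those clusters held 535 and 520 cells at 1 week and 84 and 64 at 16 weeks, and the cluster led by Isg20 and Ccl25 held 428 and 39. The part of this mixture in the ratio was not tested. Pax1, Pax9 and Six4 overlapped in cTEC. Foxn1 in the perinatal gate was 245 CPM in the pool at 1 week and 236 CPM at 16 weeks, from 602 and 43 cells.

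In mature mTEC Pax1 showed the largest difference, 135 ± 36.9 CPM at 1 week against 43.7 ± 1.90 CPM at 16 weeks, a log2 ratio of -1.68 (interval -1.91 to -1.45). Pax1 in fibroblasts went from 47.6 ± 7.31 to 9.53 ± 0.852 CPM over the same wells, a ratio of -2.30, and in endothelial cells the ratio was -1.81. The level outside TEC thus moved with the result, and its part in it was not tested. Both clusters of mature mTEC had the same direction, with 191 and 115 against 54.2 and 53.6 CPM in the cluster with Aire among its leading genes and 121 and 99.8 against 32.0 and 29.0 CPM in the cluster led by Rptn and Cyp2a5. Pax9 in mature mTEC had a ratio of -0.59 (interval -0.85 to -0.31) and in fibroblasts of -1.01. Foxn1 in mature mTEC had a ratio of -0.08 (interval -0.30 to 0.15), within counting error, while in fibroblasts it was -1.27. For Trp63 the fibroblast ratio was 0.16 (interval -0.16 to 0.48), against 0.90 in cTEC.

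In intertypical TEC Foxn1 went from 94.6 ± 2.09 to 60.3 ± 12.4 CPM (ratio -0.72, interval -0.96 to -0.48) and Pax1 from 224 ± 12 to 151 ± 2.51 CPM (ratio -0.57, interval -0.72 to -0.41), while Eya1 went from 68.9 ± 9.09 to 116 ± 2.93 CPM (ratio 0.74, interval 0.49 to 1.01). Different clusters made up this class at the 2 ages. At 1 week 75 of 152 cells lay in the cluster led by Sprr2a3 and Aqp4, and at 16 weeks 643 of 1418 lay in the cluster led by Gm8113 and Gm42722 and 93 in the former. Within the cluster led by Sprr2a3 and Aqp4, Foxn1 was 109 and 89.6 CPM at 1 week and 151 and 118 CPM at 16 weeks. Pax1 there was 278 and 253 CPM at 1 week and 343 and 467 CPM at 16 weeks. Both were thus higher, not lower, at 16 weeks within the cluster that had at least 20 cells in all 4 wells. Eya1 there overlapped between the ages, at 70.5 and 50.2 against 68.1 and 67.5 CPM.

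Members whose wells did not overlap between the ages numbered 4 of 7 in cTEC, where 59.2% of genes did not overlap, 6 of 7 in intertypical TEC (62.4% of genes), 4 of 7 in mature mTEC (46.2%) and 6 of 7 in fibroblasts (65.8%). The members' counts are near those of genes at large, and with 1 pool an age, age cannot be told apart from pool.

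Gene lists set the members in context, and they too were chosen with earlier results of these data known. The list of Foxn1-dependent genes held 9 genes, of which 9 were higher in cTEC than in mature mTEC with a median log2 difference of 3.05, where 20% of all genes were and the median of all genes was -0.02. Against intertypical TEC 7 of 9 were higher in cTEC with a median of 3.12, where 4.79% of all genes were and their median was -0.06. Psmb11, Prss16, Ccl25 and Ctsl of this list also named the cTEC class, so their direction is no independent evidence. Among the genes that did not name the class, Dll4, the Notch ligand that commits progenitors to the T lineage, was higher in cTEC than in intertypical TEC by 3.12 (edgeR adjusted p = 0.00134) and lower in intertypical TEC than in mature mTEC by -1.67 (edgeR adjusted p = 0.00619). Cd83, which encodes a surface protein that stabilises MHC class II, was higher in cTEC than in intertypical TEC by 4.09 (edgeR adjusted p = 0.00281). Cxcl12, a chemokine, was higher by 2.67 (edgeR adjusted p = 0.0175). Fgfr2, the receptor for FGF7, was higher than in mature mTEC by 2.08 in cTEC (edgeR adjusted p = 7.55e-04) and by 2.68 in intertypical TEC (edgeR adjusted p = 4.77e-04). Of the genes that named the class, Ccl25, a chemokine for thymocyte progenitors, was higher in cTEC than in intertypical TEC by 3.35 (edgeR adjusted p = 0.00595). Ctsl, a cortical protease, was higher in cTEC than in mature mTEC by 3.73 (edgeR adjusted p = 0.00135) and did not pass against intertypical TEC (1.55, adjusted p = 0.113). Between intertypical TEC and mature mTEC 2 genes of the list were higher, 1 was lower and 6 did not pass (median 0.52), where 12.9% and 18.4% of all genes were higher and lower, so these counts are near those of genes at large. Against fibroblasts 6 were higher and 3 did not pass (median 1.72), where 17.1% of all genes were higher.

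Of 22 other transcription regulators of the pharyngeal region and organ formation, 20 were tested. Against fibroblasts 8 were higher and 5 lower in TEC (median log2 difference 0.55), where 17.1% and 22.0% of all genes were, so the count of lower genes is near that of genes at large. Eya2, a relative of Eya1, was higher in TEC by 2.30 (edgeR adjusted p = 2.24e-05), the LIM homeobox gene Isl1 by 3.20 (edgeR adjusted p = 3.40e-05) and Eya4 by 2.05 (edgeR adjusted p = 3.81e-05). Hoxa5, a neighbour of Hoxa3 that overlaps it, was lower in TEC by -4.97 (edgeR adjusted p = 5.11e-05). Between cTEC and mature mTEC 9 were higher and 4 lower, between intertypical TEC and mature mTEC 9 were higher and none lower, and between cTEC and intertypical TEC none was higher and 2 were lower. These were Eya4, with -1.18 (edgeR adjusted p = 0.00888), and Gata3, named after its values were seen, with -2.43 (edgeR adjusted p = 0.00404). The medians were 0.47, 0.79 and -0.28. Over all genes 20% were higher and 25.1% lower in the first of these comparisons, 12.9% and 18.4% in the second and 4.79% and 5.66% in the last, so genes at large also had more calls against mature mTEC.

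Of 13 basal epithelial genes linked to p63, 12 were higher in TEC than in fibroblasts (median log2 difference 2.66), 9 higher in intertypical TEC than in mature mTEC (median 1.67) and 9 lower in cTEC than in intertypical TEC (median -1.49). Of all genes 17.1%, 12.9% and 5.66% were called in these directions, with medians of 0.01, 0.03 and -0.06. Between cTEC and mature mTEC 7 were higher and 4 lower (median 0.66), where 20% and 25.1% of all genes were. Krt5 and Krt14 of this list also named intertypical TEC. Itgb4, the integrin chain of hemidesmosomes, was higher in TEC than in fibroblasts by 3.11 (edgeR adjusted p = 9.44e-07) and lower in cTEC than in intertypical TEC by -1.14 (edgeR adjusted p = 0.00353). Perp, a desmosome component and p63 target, was higher in TEC by 3.18 (edgeR adjusted p = 2.26e-06). Lama3 and Lamb3, chains of laminin 332, were higher by 2.93 (edgeR adjusted p = 3.46e-06) and 2.61 (edgeR adjusted p = 9.32e-06). Jag2, a Notch ligand, was higher in cTEC than in mature mTEC by 2.73 (edgeR adjusted p = 1.06e-04), as Trp63 was, whereas Col17a1, a hemidesmosomal collagen, was lower by -3.54 (edgeR adjusted p = 4.48e-05). Trp63 itself did not pass between cTEC and intertypical TEC, where 9 of these 13 genes did.

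The pattern of each member over 32 units of class and well was compared with that of 15312 genes by Pearson correlation of log2(CPM + 1). Units of 1 well share its free RNA and depth, and classes share cell origin, so the values are descriptions. Foxn1 was most like Mreg (r = 0.95), Sh2d4b, Slc25a13, Mafa and Fam213b, and Pax1 most like Ctf1 (r = 0.93), Fam49b, Krt18, its antisense neighbour AI646519 and Me2. Pax9 was most like Dsc2 (r = 0.96), Plxnb1, Dmrt2, Patj and Rab15, and Six4 like Plxnb1 (r = 0.95), Pclo, Gm42448, Pax9 and Rnf43. Eya1 was most like Gm37444 (r = 0.92), which overlaps it on the same strand, Tmc4, Dtnb, Map7 and Zfhx3, and Trp63 like Ptprz1 (r = 0.96), Ddr1, Bcl11a, Isl1 and Lamb3. Hoxa3 had no close match, with Zfp36l1 (r = 0.84), Snai2, Nfia, Nfib and Nedd4 at the top. Among the members, r was highest for Pax9 and Six4 (0.93), followed by Pax9 and Trp63 (0.86), Six4 and Eya1 (0.85) and Pax1 and Pax9 (0.83). Foxn1 had r = 0.76 with Pax1 and 0.75 with Pax9, and Hoxa3 ran from -0.19 with Foxn1 to 0.27 with Trp63.

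Whether cells with Pax1 more often held Foxn1 was asked in cTEC. In 1 random thinning to 2000 UMIs, Foxn1 was found in 32.1% of cTEC with a Pax1 transcript and in 30.8% of those without in replicate 1 at 1 week, and in 28.2% and 25.4% in replicate 2. At 16 weeks the shares were 18.5% and 14.3% in replicate 1 and 29.1% and 13% in replicate 2. The share was higher with Pax1 in all 4 wells, but the exact binomial intervals overlapped in each of them.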

How the data were processed

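Transcripts and 27 surface tags were counted in 9953 cells of 4 libraries. The authors deposited raw UMI counts per gene and per tag, made with STARsolo 2.7.9a on mm10 from cells with at least 2000 UMIs, with no normalization. The labels and the methods name different versions of the capture kit. Gene symbols matched 55141 of 55487 identifiers, and the others held 0.0310% of UMIs.

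Doublets were scored with Scrublet in scanpy 1.11.5, and the highest scores of each library were removed at an assumed 0.8% per 1000 cells. Cells were clustered after batch correction without the members, clusters were named from marker lists with at least 3 markers, and epithelial clusters whose median cell had fewer than 3000 UMIs were not used. Counts were summed per pool and class with at least 20 cells (10 sums, 4 residual degrees of freedom) and tested in edgeR 4.0.16 (R 4.3.3) with TMM scaling, the quasi-likelihood F test and the pool as a block. Here p-values are adjusted by Benjamini-Hochberg over 17712 genes at a threshold of 0.05, and SE is the log2 difference over the square root of F. On simulated data 82.1% of 196 genes changed by a log2 difference of 2 were recovered between cTEC and mature mTEC among 16627 genes. Intervals are exact at 95% and cover counting error only. Tag tertiles used centred log ratios of the deposited tag counts, with 0.5 added to the gene counts of each tertile. Shares are expectations over all thinnings to 2000 UMIs, and cells of a well are not independent replicates.

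The members and gene lists were chosen with earlier results of these data known. Named were the members, up to 6 genes of each list by smallest p among those with a called difference, and the 5 genes most like each member. Some genes that this rule names are not reported here. Alternatives were DESeq2 1.42.0, other scaling, filters, blocks, doublet and cluster settings, gates on tags, thinning to 6000 UMIs and leaving out each library. The libraries of 1 pool are wells and not separate animals. With the pool as a block, p-values set differences between classes against how these differed between the ages, not against a spread between animals.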

Additional observations from a re-analysis of the deposited data

Results flagged for a closer look

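Among classes with at least 20 UMIs of a gene in each pool, the age ratios of 3 members went in opposite directions in different TEC classes, with wells of the ages not overlapping. Foxn1 had a log2 ratio of 16 weeks over 1 week of -0.72 in intertypical TEC and 0.13 in proliferating TEC, where its interval of -0.16 to 0.43 holds 0. Pax1 had -1.68 in mature mTEC and 0.19 in proliferating TEC, again within counting error (interval -0.18 to 0.56). Eya1 had 0.74 in intertypical TEC and -0.61 in proliferating TEC (interval -1.05 to -0.16). Hoxa3 also had opposite signs, -0.35 in cTEC and 0.78 in mature mTEC, but from 3 and 28 UMIs in the latter and with both intervals holding 0. Each age was 1 pool, and the differences between classes were not tested. Proliferating TEC numbered 37 and 30 cells at 1 week and 55 and 148 at 16 weeks, and intertypical TEC were made up of different clusters at the 2 ages, within 1 of which, led by Sprr2a3 and Aqp4, Foxn1 was higher at 16 weeks.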

How the results depend on the processing

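With 1 pool an age and 55 and 132 cTEC at 16 weeks, the comparisons of cTEC lean on replicate 2 at 16 weeks. The 7 members called between cTEC and mature mTEC ranged from 4 to 7 when a library was left out, with 4 without replicate 2 at 16 weeks. Between cTEC and intertypical TEC the 2 called ranged from 0 to 2, with 0 without the same library. There, 1 was called with DESeq2 size factors, with doublets kept, with shallow clusters kept, and with marker and list genes left out of clustering. Between intertypical TEC and mature mTEC the 5 called became 3 on tag gates and ranged from 5 to 6 over left-out libraries, and against fibroblasts all 7 were called, or 6 with doublets kept.

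The pool was the replicate block of these tests. Without this replicate block 5, 0, 4 and 7 members were called in the 4 comparisons, and 7, 3, 7 and 7 where each library gave its own sum and was the replicate block. Replicate numbers are wells of a pool, and number 1 at 1 week shares nothing but its number with number 1 at 16 weeks. Over all genes, 1851 were called between cTEC and intertypical TEC, against 330 without the block, 4908 per library, 1039 with doublets kept, 1147 without replicate 2 at 16 weeks, 1214 with shallow clusters kept and 2911 with no filter. Between intertypical TEC and mature mTEC 5546 were called, against 3227 without the block and 2264 on gates. DESeq2 size factors moved the median of all genes between cTEC and mature mTEC from -0.02 to -0.13.

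Directions turned in 4 cases, none of which had a called test. Six4 between cTEC and intertypical TEC was 0.18 on gates (adjusted p = 0.937). Without batch correction the age ratio in mature mTEC was 0.064 for Foxn1 and -0.51 for Hoxa3. Trp63 by CD270 was 0.093 with tags scaled by total count. Of single-gene tests 376 kept direction and call, 27 lost a call and 9 gained one. The causes were not tested. Of the tag and gene pairs 24 kept 1 direction, 27 with tags scaled by total count and 26 to 37 over left-out libraries, which can only hold or raise this count. The age pairs without overlap were 14 of 21 and 11 to 20 over the alternatives, where leaving out a well can only hold or raise it, and the 18 shares above fibroblasts were 18 with thinning to 6000 UMIs and with doublets kept.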
